A study of Oryza sativa with 6 samples.

Results

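Lignin, laccase and cellulose synthase genes of rice leaves were followed through 6 genes: the 4-coumarate:CoA ligases 4CL4 and 4CL5, the cinnamyl alcohol dehydrogenase CAD6, the laccases LAC19 and LAC10 and the cellulose synthase CESA9. They were found by name in the rice gene annotation, and they are 6 of the 17905 genes that some probe set measures alone. Of the 57194 non-control probe sets, 7 were assigned to them. The 6 genes were picked because their signals differed between the genotypes in these arrays, so the comparison of their signals below is a description and carries no test. The study compared leaves of 4-week-old rice plants (Oryza sativa) that overexpress the GATA transcription factor OsCGA1 (OX) with leaves of wild type plants (WT), with 3 biological replicates of each genotype, on a 1-colour Affymetrix Rice Genome Array. Growth conditions were shared by both genotypes, with days of 16 h at 28 °C and nights of 8 h at 23 °C. The promoter of the transgene, the cultivar, the number of transgenic lines and whether plants were pooled are not given in the sources used here. No gene of the annotation carries the name OsCGA1, so the transgene itself was not analysed here.

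Lignin stiffens the secondary walls of vessels and fibres and is built from phenylpropanoids. 4CL enzymes activate hydroxycinnamic acids to their CoA thioesters, CAD enzymes reduce cinnamyl aldehydes to the monolignol alcohols, and laccases, which are copper-containing oxidases, oxidise monolignols in the wall so that they polymerise. Cellulose is made at the plasma membrane by complexes of CESA subunits, and in rice CESA4, CESA7 and CESA9 form the complex of the secondary wall. Each of these families has several members, which are measured by separate probe sets.

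The deposited values are MAS5 probe set signals on a linear scale, and changes are given on log2(signal + 3), OX minus WT, with the standard error (SE) of the limma fit over all probe sets. The 6 arrays had median signals between 14.6 and 18.7, and their correlations were 0.9465 to 0.9675 within OX, 0.9672 to 0.9689 within WT and 0.9109 to 0.9256 across OX and WT. Precision is limited by the number of arrays. The ratio of 3' to 5' control signal reflects RNA quality. In 2 of 3 actin pairs it was higher on each OX array (3.25 to 7.29 and 2.16 to 3.4) than on any WT array (2.38 to 3.11 and 1.53 to 2.01). The ratios of the third actin pair and of the GAPDH, cyclophilin and ubiquitin pairs overlapped between the genotypes. The part of RNA quality in the results below was not tested.

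The genes LAC19, CAD6 and 4CL5 had higher signals on every OX array than on any WT array, and LAC10, CESA9 and 4CL4 had lower ones. The changes thus ran in opposite directions within the 4CL family and within the laccases. Of the 7 probe sets 6 reached the minimum signal for the fit (a mean of 16.8 over the 6 arrays), 3 higher and 3 lower in OX. LAC19 reached it only through its OX arrays, since its WT signals were 0.8 to 1.2. Over all 28456 tested probe sets 16.1% lay past an adjusted p of 0.05 from limma, 8.65% higher and 7.44% lower in OX. The arrays of the genotypes did not overlap for 38.7% (16.7% higher and 22% lower in OX). Since the members were picked on this comparison, their count is not read against those shares. In bulk leaf RNA, a change in the number of cells of a type and a change in RNA per cell cannot be told apart.

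**Figure D1:**
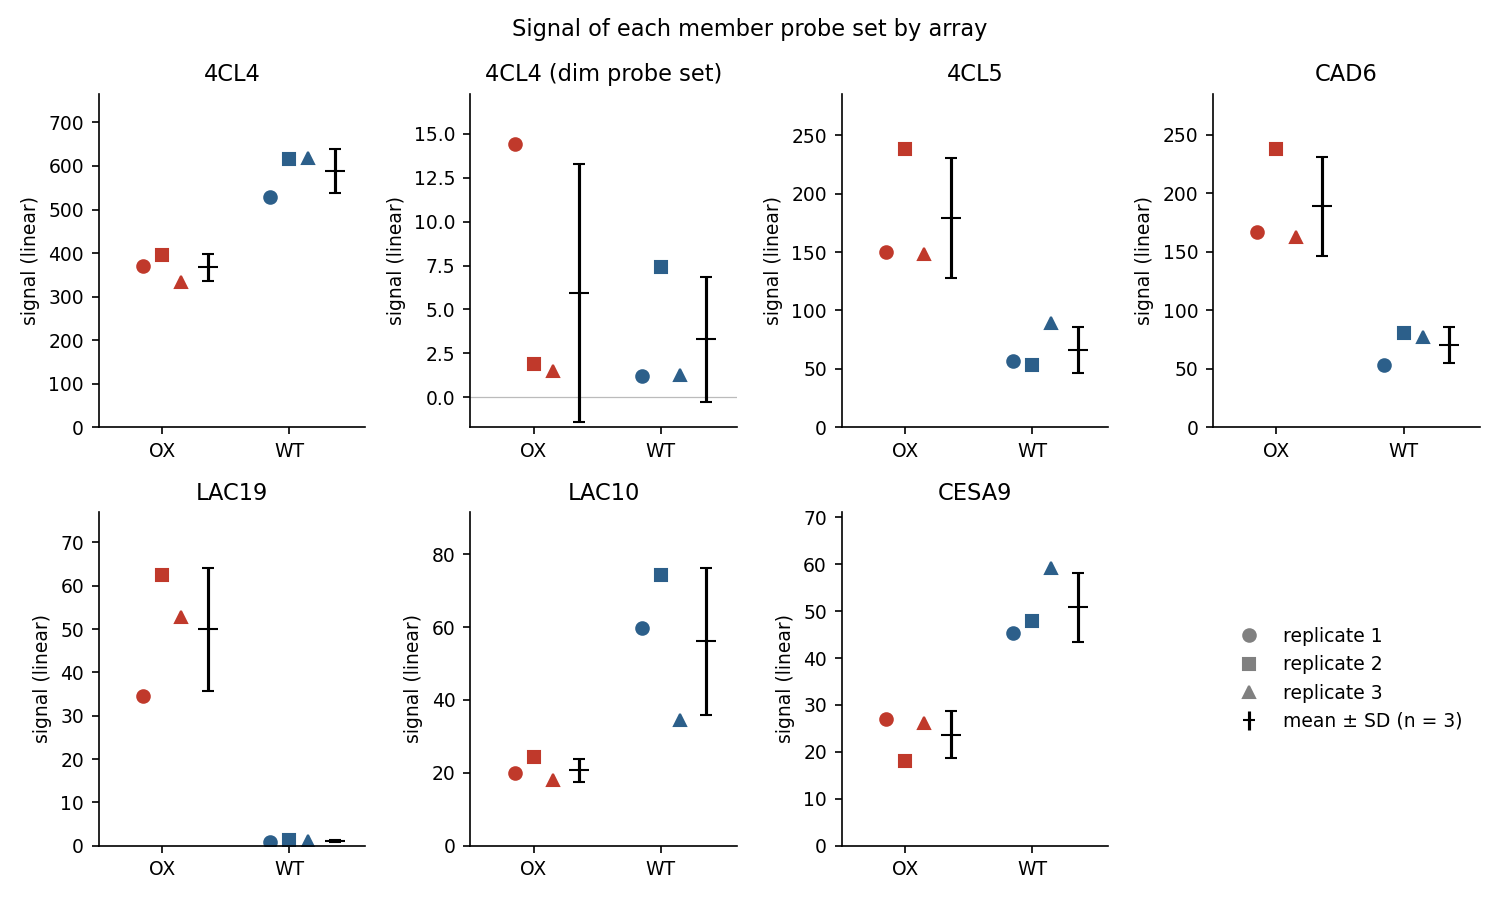
Signal on a linear scale (vertical axis) of each of the 7 probe sets of the 6 genes on the OX arrays (red, left) and the WT arrays (blue, right); marker shapes give the replicate and black bars the mean ± SD of 3 arrays. The genotypes do not overlap in 6 panels, and LAC19 lies at 34.6 to 62.6 on OX arrays and at 0.8 to 1.2 on WT arrays.

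At the entry to the pathway, the brighter probe set of 4CL4 (LOC4341718, also named RAL1) read 371.1, 395.7 and 332.8 on the OX arrays, against 529.1, 615.0 and 618.9 on the WT arrays. Every OX array was below the lowest WT array, and the spread within each genotype was small beside the gap. The change was -0.68 ± 0.12 (SE, n = 3 arrays per genotype), or 1.6-fold lower in OX. A second probe set of 4CL4 read 14.4, 1.9 and 1.5 in OX and 1.2, 7.4 and 1.3 in WT, a mean of 4.62, which is under the minimum. Its genotypes overlapped and a single array of each genotype stood above the others, so it gives no second reading of 4CL4.

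4CL5 (LOC4345717) read 149.9, 238.2 and 148.0 on the OX arrays, against 56.6, 53.0 and 88.9 on the WT arrays. OX replicate 2 was the highest of the 6 arrays and WT replicate 3 came nearest to the OX range without reaching it. The change was 1.39 ± 0.25 (SE), 2.63-fold higher in OX, and thus opposite in sign to that of 4CL4. Signals of different probe sets are not on a common scale, so the levels of the ligases cannot be ranked against each other.

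For the last step of monolignol synthesis, CAD6 (LOC4335223) read 167.0, 237.8 and 162.3 on the OX arrays, against 52.9, 80.9 and 76.9 on the WT arrays. All OX arrays were above all WT arrays, and OX replicate 2 was again the highest. The change was 1.39 ± 0.21 (SE), or 2.62-fold. CAD6 and 4CL5 thus had changes of about the same size.

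LAC19 (LOC4351005) had the largest change of the 6 genes. It read 34.6, 62.6 and 52.8 on the OX arrays, against 0.8, 1.2 and 1.1 on the WT arrays. The WT values lay below the added constant of 3 and below 2.6, under which 20% of all non-control values lie, so LAC19 had a clear reading in OX leaves only and the size of its change has no firm value. It was 3.68 ± 0.39 (SE), 12.8-fold, with the constant of 3, 2.22 with a constant of 12 and 5.57 with none.

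LAC10 (LOC4332400) went the other way, with signals of 20, 24.2 and 17.9 in OX, against 59.6, 74.3 and 34.4 in WT. The groups did not overlap, but WT replicate 3 was close to the OX arrays and set most of the WT spread (56.1 ± 20.2 in WT, against 20.7 ± 3.21 in OX, SD, n = 3 each). The change was -1.26 ± 0.30 (SE), 2.4-fold lower in OX, and it was -1.56 without WT replicate 3 and -1.04 without WT replicate 2.

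CESA9 (LOC4347093), a subunit of the secondary wall cellulose synthase, read 27.1, 18.0 and 26.1 on the OX arrays, against 45.3, 47.9 and 59.3 on the WT arrays. The OX arrays were all below the WT arrays, with OX replicate 2 the lowest. The change was -1.02 ± 0.23 (SE), or 2.03-fold lower in OX, and -0.85 without OX replicate 2.

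**Figure D2:**
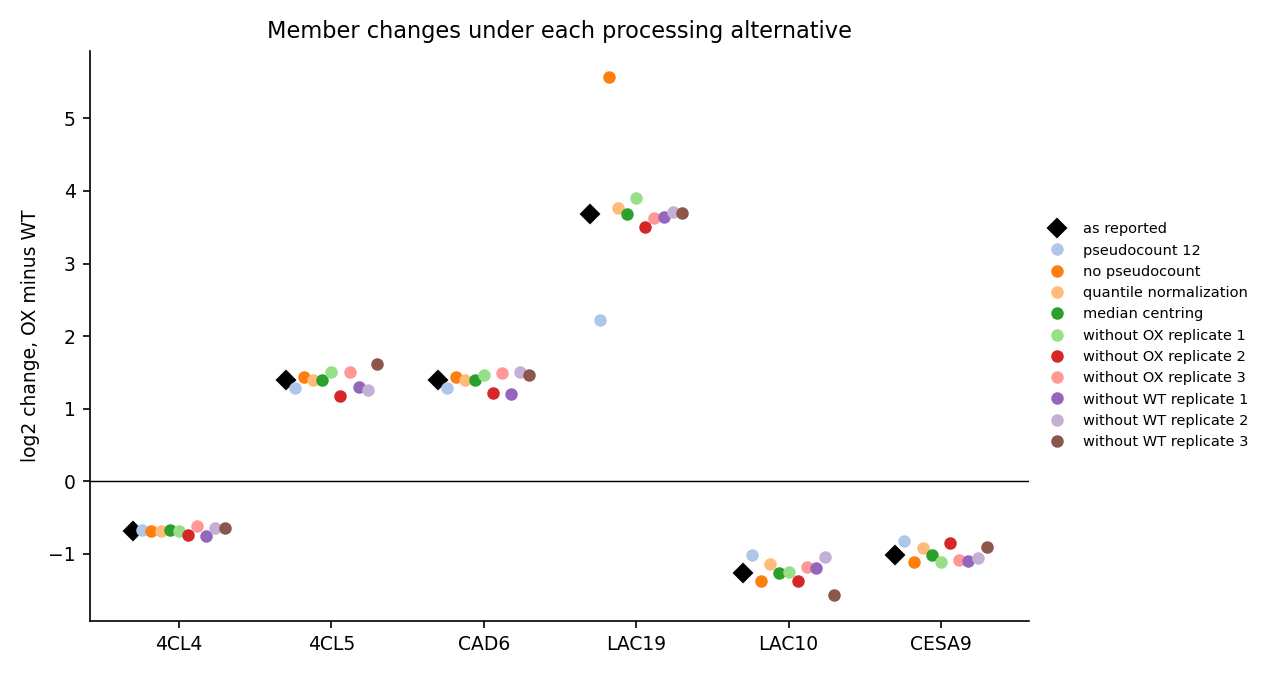
Log2 change (OX minus WT, vertical axis) of each gene as reported (black diamond) and under 10 other settings of the pseudocount, the scaling and the arrays used (coloured points). All points of a gene stay on their side of 0, and LAC19 runs from 2.22 to 5.57 with the pseudocount.

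The other genes of the pathway were collected by name in the same way. Of 69 such genes in the annotation 53 had a probe set of their own and 37 reached the minimum signal. Among these 37, 4 rose and 2 fell in OX at an adjusted p under 0.05 from limma, which is 16.2% of them, against 19.1% of all 14616 genes tested with 1 probe set each (11.1% rose and 8% fell). Their median change was -0.05, against -0.02 for all genes. These counts leave out the members, which belong to the same families and were picked because they differed. The rate of 16.2% is thus that of the remaining genes, and it gives no rate for the pathway as a whole.

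Among 7 tested genes of monolignol synthesis 2 rose and 1 fell. CAD3 (LOC4348690), a further member of the CAD family, read 2176.3, 1572.5 and 1961.9 in OX, against 850.1, 1065.3 and 1026.2 in WT. Its change of 0.95 ± 0.15 (SE) had an adjusted p of 0.0054 from limma and stayed past the threshold in all 15 alternatives run for single genes. HCT2 (LOC4329959), named for hydroxycinnamoyl transferases, which pass the acyl group to shikimate, read 214.0, 291.6 and 190.0 in OX, against 125.3, 133.5 and 120.5 in WT. It rose by 0.84 ± 0.17 (SE, adjusted p = 0.0154 from limma), and HCT3 (LOC4340333) fell by 0.53 ± 0.12 (adjusted p = 0.0227). A dimmer probe set of HCT3 had a change of -0.32 ± 0.11 that did not pass (adjusted p = 0.0917 from limma). With the mean of both probe sets HCT3 passed, with a change of -0.425 (adjusted p = 0.0406 from limma). HCT2 missed the threshold in 2 and HCT3 in 5 of 15 alternatives.

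CAD2 (LOC4328552), whose synonym GH2 comes from the gold hull and internode mutant, had a change of 0.93 ± 0.32 with an adjusted p of 0.0823 from limma and did not pass. It is named here because of its values: OX replicate 1 read 1284.6, against 530.5 and 548.6 on the other OX arrays and 347.3 to 437.0 on the WT arrays. Without OX replicate 2 its change was 1.15 and passed (limma, adjusted p = 0.0423), but that fit kept the high OX replicate 1. The change of CAD2 without OX replicate 1 is not given here. At the pathway's entry, 0 of 4 tested genes passed in limma by the brightest probe set of each (also 0 at an unadjusted p under 0.05). PAL06 (LOC4330040), a phenylalanine ammonia-lyase of the first step, had the smallest p there, with a change of 1.01 ± 0.48 (adjusted p = 0.186 from limma). Its dimmer probe set had a change of 1.42 ± 0.51 and did not pass either (limma, unadjusted p = 0.0239, adjusted p = 0.096). The ligase genes 4CL1, 4CL2 and 4CL3 had changes of -0.40 ± 0.31, -0.002 ± 0.379 and -0.62 ± 0.39 (SE) and none passed. Without OX replicate 2 these changes were -0.004, 0.49 and -0.19.

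Among the other laccases 0 of 4 tested genes passed in limma (1 at an unadjusted p under 0.05). LAC7 (LOC4324802) had the smallest p, with signals of 1568.6, 918.1 and 2183.7 in OX, against 2335.5, 2589.6 and 2553.8 in WT. Its change was -0.76 ± 0.27 (SE, adjusted p = 0.0921 from limma). It was -1.05 and passed without OX replicate 3 (adjusted p = 0.0324 from limma), and it was -0.43 without OX replicate 2 (adjusted p = 0.0781). LAC3 and LAC4 also had negative changes (-0.57 ± 0.47 and -1.32 ± 0.92) and LAC24 a positive one (1.10 ± 0.59), all with genotypes that overlapped. LAC4, named here for its values, read 2.0 in OX replicate 2 and 57.8 to 83.0 on the other 5 arrays, and its change was -0.04 without that array. The change of LAC3 without it was -0.10.

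Of the 7 other cellulose synthase genes tested 0 passed in limma (1 at an unadjusted p under 0.05). CESA7 (LOC4348853) read 100.5, 29.2 and 112.2 in OX, against 187.3, 197.7 and 136.5 in WT, so that all OX arrays were below all WT arrays, as for CESA9. Its change was -1.27 ± 0.45 (SE, adjusted p = 0.0915 from limma), and -0.68 with an adjusted p of 0.0415 without OX replicate 2. CESA4, the remaining subunit of the secondary wall complex, had changes of -1.02 ± 0.47 (adjusted p = 0.172) and -0.82 ± 0.22 (adjusted p = 0.0435 from limma) in its brighter and dimmer probe set. Only the brighter probe set was counted, its genotypes overlapped, and its change was -0.45 without OX replicate 2 (adjusted p = 0.278 from limma).

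By the brightest probe set of each, the changes of the other 5 cellulose synthase genes (CESA1, CESA3, CESA5, CESA6 and CESA8) lay between -0.24 and 0.26. Without OX replicate 2 they lay between 0.20 and 0.56, and that of CESA8 was 0.25, against -0.24 with all arrays. Dimmer probe sets of CESA1 and CESA3 had lower changes, -0.765 ± 0.425 and -0.402 ± 0.232 (SE). Their genotypes overlapped and they did not pass (adjusted p = 0.248 and 0.265 from limma). The difference between these 5 and the secondary wall subunits was not tested. Among 12 cellulose synthase-like genes CSLE1 (LOC4347370) rose by 0.35 ± 0.09 (SE, adjusted p = 0.0342 from limma) and CSLC1 (LOC4325496) fell by 0.55 ± 0.15 (adjusted p = 0.0475). They missed the threshold in 8 and 9 of 15 alternatives. CSLE2 did not pass by its brightest probe set (0.288 ± 0.14, adjusted p = 0.193 from limma). A dimmer probe set of CSLE2 passed (0.796 ± 0.221, adjusted p = 0.046 from limma), and another had a change of -0.025 ± 0.14. With the mean of its probe sets CSLE2 did not pass (0.353, adjusted p = 0.122 from limma). BC1L9 (LOC4349011), named as a relative of the COBRA-like wall protein BC1, read 338.7, 536.0 and 323.2 in OX, against 117.7, 165.4 and 189.3 in WT. It rose by 1.31 ± 0.24 (SE, adjusted p = 0.0101 from limma) by this probe set, which passed in all 15 alternatives run on it. Its dimmer probe set read 87.7, 139.6 and 111.0 in OX, against 8.2, 75.5 and 67.2 in WT, a change of 1.53 ± 0.67 that did not pass (adjusted p = 0.155 from limma). With the mean of both probe sets the change was 1.42 and BC1L9 did not pass (adjusted p = 0.0588), which left 3 pathway genes that rose. BC1 itself (-0.66 ± 0.25, adjusted p = 0.105) and BC1L6 (0.90 ± 0.46, adjusted p = 0.214) did not pass.

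**Figure D3:**
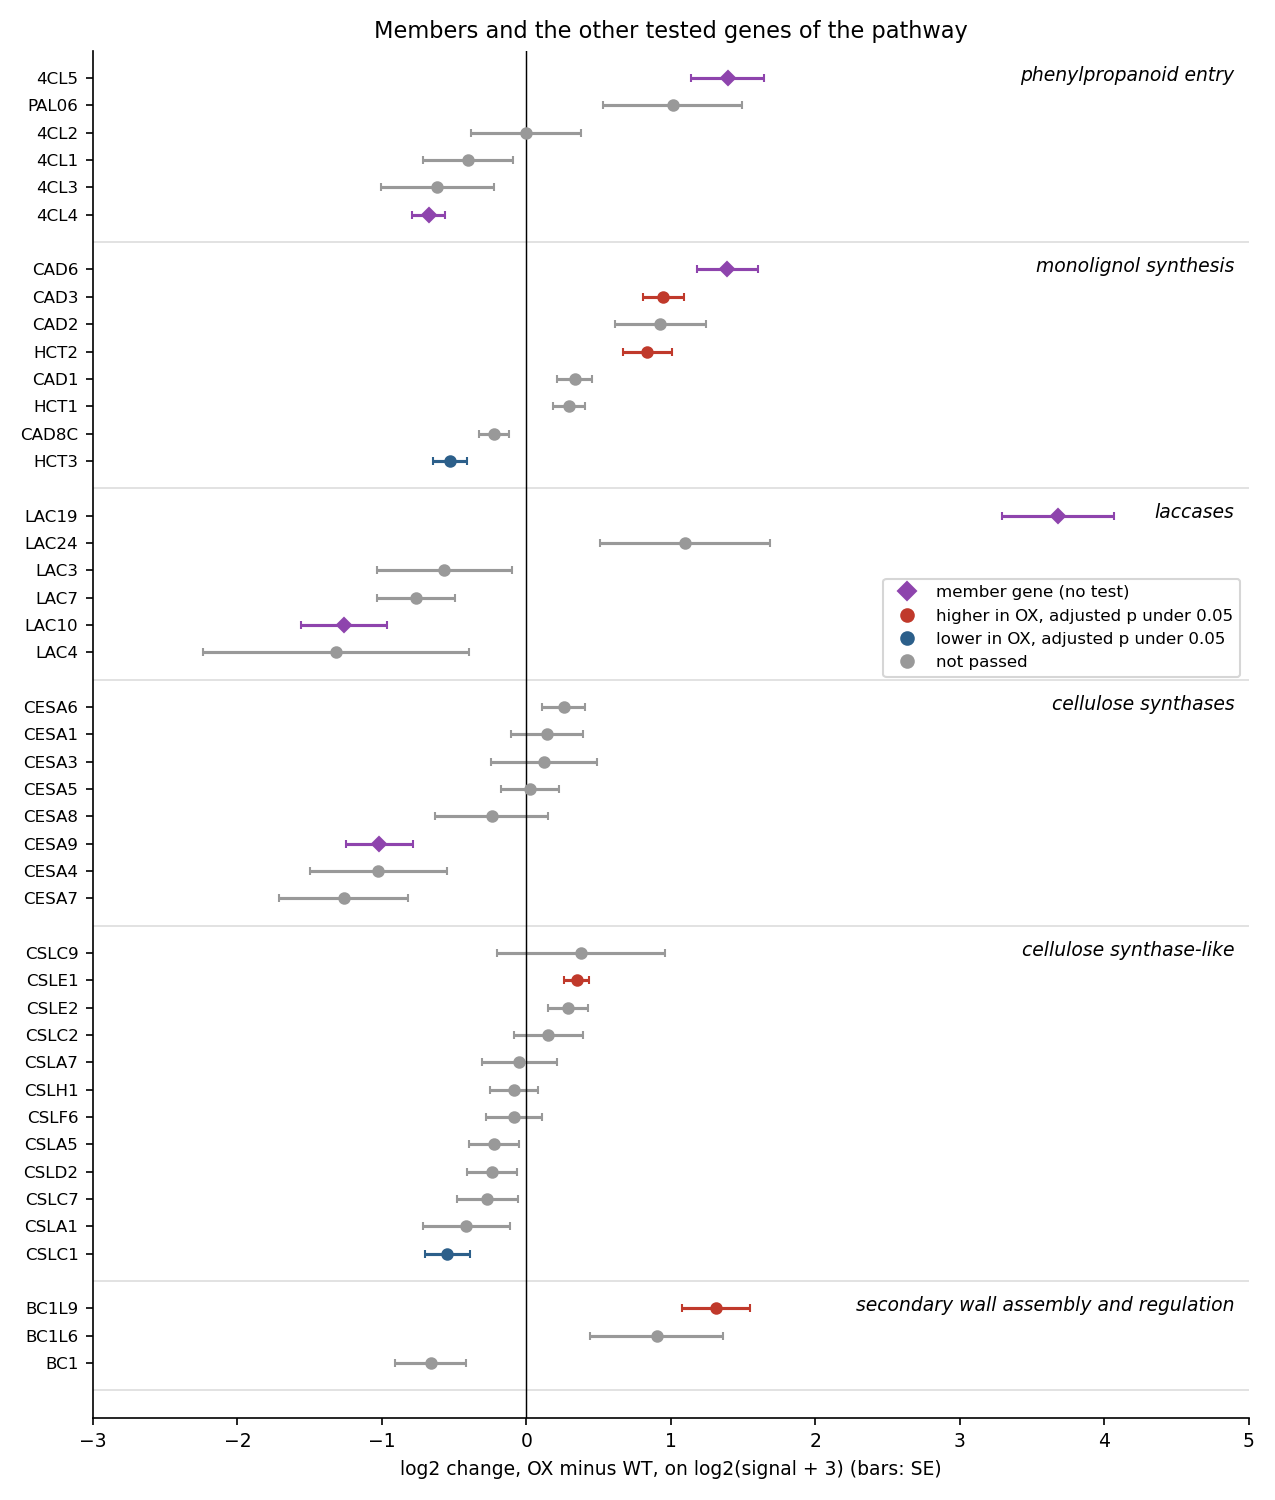
Log2 change (OX minus WT, horizontal axis, bars are SE) of the 6 genes (purple diamonds, no test) and of the 37 other tested genes of the pathway (circles, red higher and blue lower at an adjusted p under 0.05, grey not passed), grouped by list. 4CL5 and 4CL4, and LAC19 and LAC10, stand on opposite sides of 0.

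The count of pathway genes depends on single arrays. The 4 that rose became 2 without WT replicate 1 or WT replicate 3. The 2 that fell became 1 without OX replicate 1, OX replicate 3 or WT replicate 1, and 0 without WT replicate 2 or WT replicate 3. OX replicate 2 stood apart for these genes: it was the lowest of the 6 arrays for 18 of the 37 pathway genes (48.6%), against 20.2% of all genes tested. It was lowest for 6 of 7 cellulose synthase genes and for 3 of 4 laccases, for 3 of 4 entry genes, 5 of 12 cellulose synthase-like genes and 1 of 3 assembly genes, and for 0 of 7 monolignol genes. Without it 5 pathway genes rose and 2 fell. The 2 were HCT3 and CESA7, while CSLC1 missed the threshold there (adjusted p = 0.0542 from limma). Of the 6 member genes OX replicate 2 was the lowest array for CESA9 and the highest for LAC19, CAD6 and 4CL5. Without OX replicate 2 the member changes were 3.51 (LAC19), 1.22 (CAD6), 1.17 (4CL5), -0.85 (CESA9), -1.37 (LAC10) and -0.73 (4CL4). OX replicate 1 had the highest ratio of the 6 arrays in each actin pair (7.29, 5.76 and 3.4). It was the highest array for 14 of the 37 pathway genes (37.8%), against 21.1% of all genes tested. Without it 3 pathway genes rose and 1 fell. The member changes without it were 3.91 (LAC19), 1.47 (CAD6), 1.5 (4CL5), -1.11 (CESA9), -1.25 (LAC10) and -0.69 (4CL4). The part of these arrays' RNA quality in the counts was not tested.

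**Figure D4:**
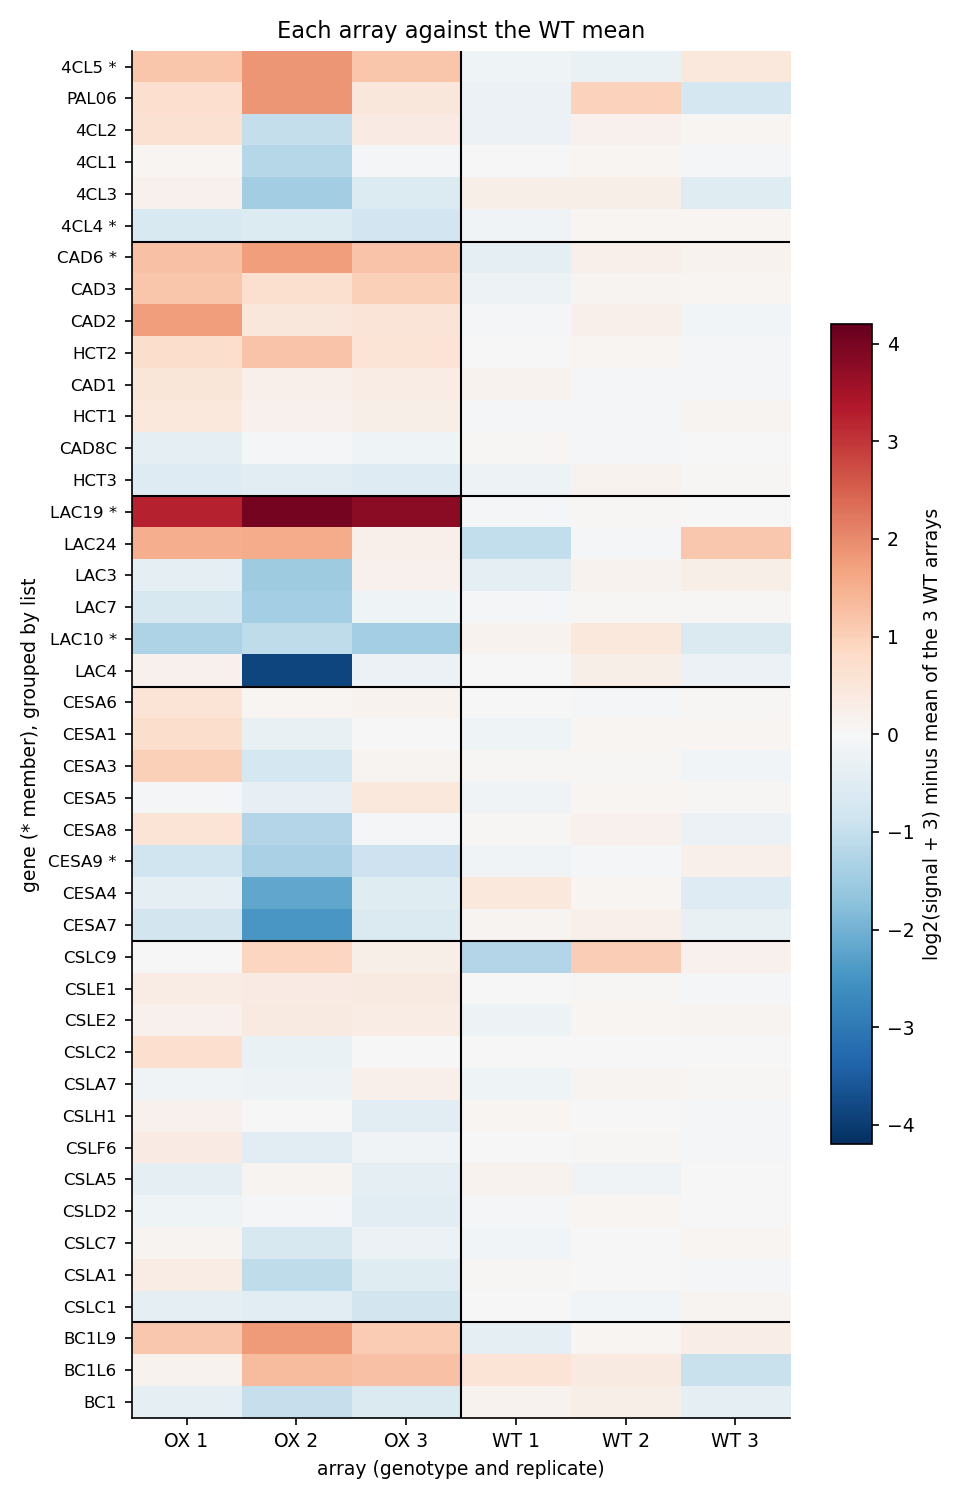
Each array (columns, OX left and WT right) set against the mean of the WT arrays on log2(signal + 3), for the 6 genes (marked *) and the 37 other tested pathway genes (rows, grouped by list); red is above and blue below that mean. OX replicate 2 is the bluest column among the cellulose synthases, with CESA7 at a signal of 29.2 and LAC4 at 2.0.

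Markers of tissues were read beside these results. Signals of different probe sets are not on a common scale, so each sum below only compares arrays. Bright probe sets weigh most in it. Of all 14616 genes tested with 1 probe set each, 19.1% passed, 11.1% higher and 8% lower in OX. The marker lists were chosen with earlier results of these data known, so their counts are not read against those shares. The leaf mesophyll genes CAB2R, RCABP69, LHCP, rca and RBCS had bright signals and, by the brightest probe set of each, summed to 35313.7 to 40981.4 in OX and 43672.2 to 51850.2 in WT, with 0 of 5 past the threshold. A dimmer rca probe set passed (-0.384 ± 0.104, adjusted p = 0.0425 from limma), and the other rca probe sets did not. Dimmer RBCS probe sets had changes of 0.094, -0.004 and -0.357, against -0.301 for the brightest, and none passed. Of 6 tested root genes 3 fell (Lsi1, YSL15 and IRT1). IRT2 did not pass (-1.343 ± 0.405, adjusted p = 0.0588 from limma), nor did NRAMP5 and HKT1;5, with changes of -0.11 and -0.04. The 7 root genes with a probe set summed to 293.2 to 333.2 in OX and 698.9 to 732.7 in WT. Lsi1 was the brightest of them, at 123.1 to 194.0 in OX and 370.6 to 458.2 in WT, while Lsi2 averaged 0.967 in each. Of 3 epidermis genes 2 fell (Roc2 and LTPL1), with sums of 1834.1 to 2187.8 in OX and 2652.4 to 2813.9 in WT. Of 2 tested genes of dividing cells 1 rose, the histone gene H2B.10, which read 612.4 to 756.0 in OX and 358.9 to 375.9 in WT and made up most of that list's sums (670.3 to 789.2 in OX and 379.9 to 399.1 in WT). The cell cycle kinase gene CDKB2-1 did not pass (1.47 ± 0.44, adjusted p = 0.0581 from limma), and both CYCB1-1 genes lay under the minimum signal with genotypes that overlapped. The secondary wall subunits CESA4, CESA7 and CESA9 summed to 79.4 to 247.7 in OX, with OX replicate 2 the lowest, and 301.2 to 447.9 in WT. CESA9 is a member, and CESA4 and CESA7 are pathway genes read above, so this sum is no separate reading of vascular tissue. The part of any shift in tissue makeup in the results was not tested.

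The genes whose 6 arrays ran most like those of each member were sought among 2518 tested probe sets of genes with an informative name, as the smallest Euclidean distance between log2(signal + 3) values, each minus its own mean. The 6 arrays fall into 2 genotypes, so this measure mainly finds genes with a change of similar size. Nearest to LAC19 were LOC4348646 (distance 0.757), EIL1 (0.797) and EL2 (0.95), and nearest to LAC10 were CYCA3-2 (0.488), OsPHO1;2 (0.551) and OsWNK2 (0.64). CAD6 ran closest to BIMK2 (0.23) and BC1L9 (0.251), the wall gene above, then XOAT7 (0.389). The nearest genes were ASA2 (0.347), HSF23 (0.373) and JMJ706 (0.451) for 4CL5, XDH (0.167), OsTIP2;2 (0.187) and HOX33 (0.192) for 4CL4, and MYBS2 (0.233), AC7 (0.351) and HAK22 (0.359) for CESA9. The distances of LAC19 depend on the pseudocount, since its WT signals lie under it.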

How the data were processed

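Total RNA (5 µg) from 3 OX and 3 WT leaf samples was labelled with biotin, per the labels' protocols. The deposited intensity values are linear probe set signals made by the authors with MAS5, per the submitters' processing notes (version not given in the sources used here). The mean of each array after trimming 2% at each end was 100.02, so no further scaling was applied. Detection calls were not used here. Of 57381 probe sets 187 controls were left out. The platform annotation gave 22436 probe sets 1 gene and 95 several, which were not named, and 34663 non-control probe sets none. All 17905 genes so named matched RefSeq (assembly ASM3414082v1) by Entrez ID, used for names and gene order alone.

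Values were taken as log2(signal + 3), 3 being the 20th percentile of non-control values (2.6) rounded up. Probe sets with a mean of at least 16.8, the median of non-control values, were tested with limma 3.58.1 in R 4.3.3 (genotype alone as the term, lmFit and two-sided eBayes tests with a variance trend) and Benjamini-Hochberg adjustment over 28456 probe sets. The fit was tested on simulated data. 1 probe set stood for a gene, the brightest tested. Members and lists were chosen with earlier results of these data known. Named genes were all members, pathway genes that passed, the smallest p of each other list, and the 3 genes nearest to each member. All other genes in the text, such as CAD2, CESA1, CESA3 to CESA6, CESA8, CSLE2, LAC3, LAC4, LAC20, LAC24, 4CL1 to 4CL3, BC1, BC1L6 and LOC4345718, fell outside that rule and were named after their values were seen, apart from the tissue markers, which are listed genes. Names of 2 genes of another product were left out. Promoter motifs were not analysed here. Same-numbered OX and WT arrays had deviations with correlations of 0.097, -0.013 and -0.056, against -0.103 to 0.117 for arrays with different numbers. The labels state no pairing, so none was used in the fit. With 3 arrays per genotype these correlations cannot show whether same-numbered samples were grown or handled together. The p-values set the genotype difference against the spread between the labelled biological replicates, with variances moderated over the tested probe sets.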

Additional observations from a re-analysis of the deposited data

How the results depend on the processing

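The direction of the 6 tested members was the same under all 11 alternatives run for each, with leave-one-out ranges of 3.51 to 3.91 for LAC19, -1.56 to -1.04 for LAC10, 1.21 to 1.5 for CAD6, -0.75 to -0.61 for 4CL4, 1.17 to 1.62 for 4CL5 and -1.11 to -0.85 for CESA9. The dim probe set of 4CL4 ran from -0.29 to 0.77. The change of LAC19 was 2.22 with a pseudocount of 12 and 5.57 with none, since its WT signals lie under the pseudocount. Of the pathway genes, 2 to 5 rose and 0 to 2 fell when an array was left out. The number that fell was 1 with a replicate block, 0 without the variance trend and 4 at an adjusted p under 0.10. With the mean of a gene's probe sets 3 rose, BC1L9 not among them (adjusted p = 0.0588). CAD2 and CESA7 passed without OX replicate 2 and LAC7 without OX replicate 3. For all probe sets the count passed was 2230 to 5533 with an array left out (1274 to 2631 higher, 843 to 2902 lower). It was 7945 (3708 higher, 4237 lower) with array weights and 7250 (3813 lower) at an adjusted p under 0.10, and 1362 were lower with no filter. The labels do not state whether the replicate numbers pair the arrays. With the replicate block, which treats them as paired, 3342 probe sets passed. PAL06 passed there, with an adjusted p of 0.0188 from limma. The cause of these differences was not tested. No scaling alternative moved the share of higher calls by over 10 percentage points (53.8% as reported, 56.6% with quantile normalization). Without detection calls, signals near the floor, such as those of LAC19 in WT, limit the size of a change that can be stated.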

Other observations

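The gene next to LAC19 in the RefSeq order is another laccase gene, LAC20 (LOC4351006). Its signals were 0.4, 1.3 and 0.9 on the OX arrays and 4.9, 7.4 and 5.7 on the WT arrays. Every array lay under the minimum signal of 16.8, so LAC20 was not tested and no direction is read from it. The gene next to 4CL5, LOC4345718, read 31.5, 33.4 and 38.0 in OX, against 10.1, 12.7 and 7.3 in WT. Its change was 1.53, with an adjusted p of 0.0124 from limma, beside 1.39 for 4CL5. The other genes with a tested probe set within 3 places of a member had changes of -0.31 to 0.41. LAC20 and LOC4345718 were named after their values were seen, and whether neighbours change together was not tested.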
